A study of Arabidopsis thaliana with 18 samples.

Results

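The genes described here are 35 nuclear genes of Arabidopsis thaliana for the core of the photosynthetic light reactions, out of 32833 genes in the count table. They were taken as listed loci and not by a cut on their expression, though the list was chosen with earlier results of these data known. The list holds 12 photosystem I genes (PSA), 12 photosystem II genes (PSB), 7 genes of the electron carriers and of ferredoxin-NADP reductase, 2 genes of cyclic electron flow (PGR5 and PGRL1A) and 2 genes of the plastid ATP synthase (ATPC1 and ATPD). Genes of the light-harvesting antenna are not on it. RNA came from hypocotyls (the stem of the seedling) of wild type (WT) and hy1 plants, in darkness (0 h) and 12 h and 24 h after transfer to light, with 3 libraries in each of the 6 groups. The ecotype, the hy1 allele, the seedling age and the light source are not given in the sources used here. Sample titles call the WT libraries mock and the hy1 libraries not, so a treatment that went with genotype cannot be told apart from it. No library was kept dark for 12 h or 24 h, so light and elapsed time cannot be told apart either. Nothing says whether replicates came from separate plants, and p-values measure the spread between these libraries only.

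In the thylakoid membrane, photosystem II splits water and passes electrons through plastoquinone and the cytochrome b6f complex to plastocyanin. Photosystem I lifts them to ferredoxin, ferredoxin-NADP reductase makes NADPH, and the ATP synthase uses the proton gradient that builds up on the way. The reaction-centre proteins are encoded in the plastid, and the genes described here encode the nuclear subunits around them. Phytochromes, the red-light receptors, act on many such genes when seedlings green. HY1 is a plastid haem oxygenase on the way to the chromophore that phytochromes bind, and hy1 plants are short of functional phytochrome.

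Of the 35 genes 12 carry the G-box CACGTG, a hexamer bound by light-signalling factors such as PIFs and HY5, between 250 bases before and 50 bases after the annotated start. The share is 34.3%, against 7.7% of 27443 promoters of the same length. Of the 8 paralog pairs among the members 4 have a G-box in both genes, and these are shown because the bases beside the hexamer can be compared within a pair. Each line gives the position in TAIR10.1, the strand read, the distance of the hexamer from the start and up to 12 bases on either side, 5′ to 3′ from the RefSeq genome, with the G-box in capitals.
PSAE1, chr4:14204036-14204065, minus strand, 8 bases downstream: atatgtaatgtaCACGTGgcagatctcaag
PSAE2, chr2:8736659-8736688, plus strand, 63 bases upstream: gatatgtgatcaCACGTGtcatatcacaag
PSAH1, chr3:5469559-5469588, minus strand, 18 bases downstream: cctactagattcCACGTGgcattttccaag
PSAH2, chr1:19454719-19454748, plus strand, 67 bases upstream: ctttttataatcCACGTGgcatttcctaag
PSAH2, chr1:19454774-19454803, plus strand, 12 bases upstream: aacccaattcgcCACGTGgcagaacaagat
PSBO1, chr5:26568563-26568592, plus strand, 3 bases downstream: ttcagatttcgaCACGTGgcaacaaaaaaa
PSBO2, chr3:18892459-18892487, minus strand, 33 bases downstream: atcagctttagaCACGTGgctattgatcg
PSBQ1, chr4:11334257-11334286, plus strand, 83 bases upstream: aaataatcttgcCACGTGgctttaaggcgg
PSBQ1, chr4:11334285-11334314, plus strand, 55 bases upstream: ggacaaaaatgaCACGTGgttttatatgag
PSBQ2, chr4:2673371-2673400, minus strand, 145 bases upstream: acgtcattcagcCACGTGacaatcgcattc
PSBQ2, chr4:2673303-2673332, minus strand, 77 bases upstream: gaatcaagaaacCACGTGtcaacatattag
The remaining 4 genes with a G-box, PSBR, PSBW, PSBTN and ATPD, have no paralog on the list.
PSBR, chr1:29735949-29735978, plus strand, 9 bases downstream: cacaacattagcCACGTGtcataaccacaa
PSBW, chr2:13020262-13020288, minus strand, 35 bases downstream: gatgaaatatgaCACGTGgagggcgtc
PSBTN, chr3:7377222-7377251, minus strand, 13 bases upstream: gatagaacatgaCACGTGgccacaacccat
ATPD, chr4:6100560-6100589, plus strand, 142 bases upstream: atcaaacaactcCACGTGtcgattcctcac
The I-box core GATAAG, searched on both strands, was in 18 members (51.4%) and in 14.6% of all promoters. GGATAA, which overlaps it in GGATAAG, was in 14 members (40.0%) against 14.8%. ACGTGG, which overlaps the G-box in CACGTGG, was in 16 members (45.7%) against 9.8%. TATAAA, searched on the given strand only, was in 10 members (28.6%) against 37.2%. A match describes the letters in the window and is not evidence of a bound factor.

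Library totals ran from 38469946 to 59905064 counts, and 20955 genes, all 35 members among them, passed the filter on low counts. HY1 transcript was at 42.4 to 47.9 counts scaled to library size (CPM) in the WT dark libraries and 31.6 to 36.3 CPM in hy1, a log2 difference of -0.39 ± 0.13 (adjusted p = 0.041). At 12 h the ranges overlapped, at 23.4 to 34 CPM and 20.2 to 24.3 CPM (-0.34 ± 0.13, adjusted p = 0.06). At 24 h it was at 33.9 to 43.2 CPM and 18.4 to 19.4 CPM (-1.05 ± 0.13, adjusted p = 6.6e-05). The libraries said here to have stood apart were 3, replicates 2 and 3 of WT 12 h plus replicate 3 of WT 24 h. Replicates 2 and 3 of WT 12 h correlated at 0.9876 with each other, and at 0.9504 and 0.9696 with replicate 1. Which of these 3 libraries is typical of WT 12 h therefore cannot be told. Replicate 3 of WT 24 h correlated at 0.9736 and 0.971 with replicates 1 and 2, which correlated at 0.9961. Genes with more than 400 and at most 800 bases of exon took 1.36% to 1.83% of counts in the libraries that stood apart. They took 1.93% to 2.86% elsewhere, and 8 members are that short. Relative to the rest of their group, the members were lower in the libraries that stood apart in 27 of 35 genes at 12 h (median log2 difference -0.43). At 24 h they were lower in 33 of 35 (median -0.83), while the median of all genes was 0 and -0.01. The part of this in the results was not tested, so counts are also given without these 3 libraries, an alternative chosen after seeing the data. It leaves 1 library at WT 12 h, which is then assumed to vary like the other groups.

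Transcripts of the group rose in light in both genotypes. In WT at 24 h 34 of 35 members rose against 0 h and none fell, with a median log2 change of 2.63. Of all genes tested 24.6% rose and 23.1% fell, with a median of 0.02. At 12 h in WT 32 members rose and none fell (median 1.78, with 28.3% of all genes higher and 25.3% lower). In hy1 all 35 members rose by 12 h (median 3.20, while 22.9% of all genes rose and 21.3% fell) and all 35 by 24 h (median 3.42, beside 20.4% and 20.1%). Without the 3 libraries the counts in WT were 34 at 12 h and 35 at 24 h, and those in hy1 stayed 35. As a share of all counts the members went from 0.0751% to 0.11% in the WT dark libraries to 0.422% to 0.742% at 24 h, and from 0.0429% to 0.0613% to 0.481% to 0.582% in hy1. Markers of other cell types moved as well. In WT at 24 h against 0 h both epidermal genes (ATML1 and PDF1), 2 of 3 vascular genes, 2 of 3 endodermal genes and the shoot meristem gene STM were called lower, and 3 of 3 root meristem genes and 1 of 3 tested guard-cell genes higher. In hy1 1 vascular and 2 endodermal genes were called lower and 2 guard-cell genes higher, while ATML1, PDF1 and STM did not pass. The epidermal sum went from 262 to 389 CPM to 67.9 to 90 CPM in WT, and from 133 to 180 CPM to 125 to 183 CPM in hy1. The part of these markers in the rise was not tested. In bulk RNA a change in the number of green cells and a change in RNA per cell cannot be told apart.

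**Figure D1:**
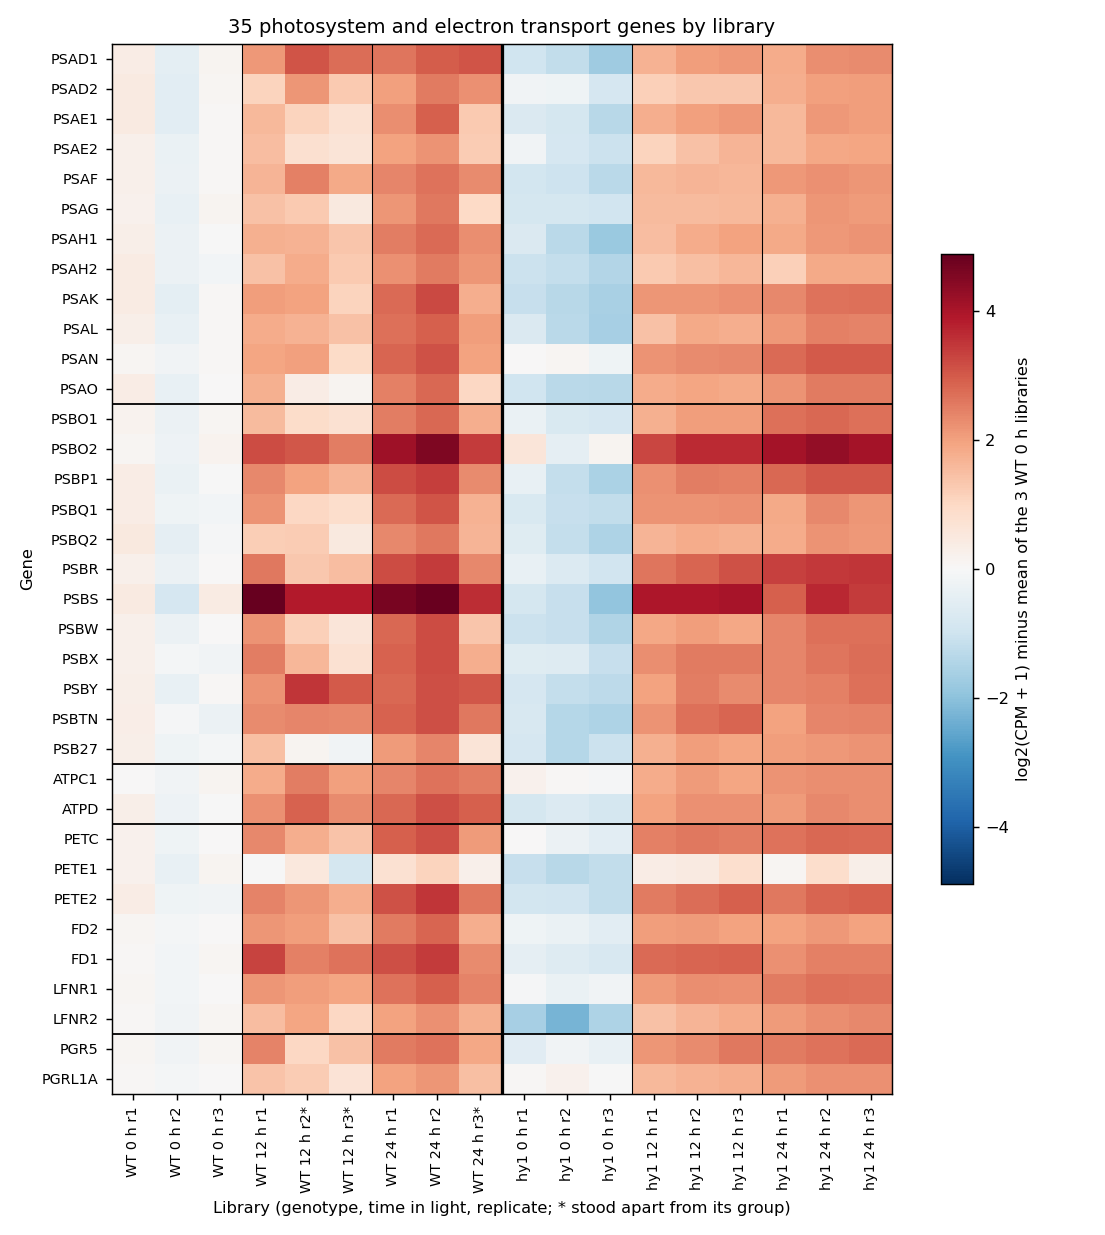
Heat map of the 35 genes (vertical axis, in blocks by role) in the 18 libraries (horizontal axis, asterisks on the 3 that stood apart), coloured by log2(CPM + 1) minus the mean of the 3 WT dark libraries. Nearly every gene is redder in light in both genotypes, and the hy1 dark columns are bluer than the WT dark ones for most genes.

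All 12 photosystem I genes rose in WT by 24 h. The largest rise was that of PSAD1 (AT4G02770), which encodes the stromal subunit that docks ferredoxin. It stood at 39.4, 21.7 and 33.8 CPM in WT darkness, at 135, 267 and 210.1 CPM at 12 h and at 193, 245 and 265 CPM at 24 h. Every light library lay above every dark one, and the log2 change at 24 h was 2.89 ± 0.29 (standard error; adjusted p = 5.7e-07). In hy1 PSAD1 went from 15.2, 12.6 and 8.43 CPM to 101, 129 and 137 CPM and then 111, 152 and 155 CPM. The smallest rise was that of PSAE2 (AT2G20260), another stromal subunit on the ferredoxin side, at 23.7, 15.7 and 20.7 CPM in WT darkness, 58.4, 34.3 and 31.5 CPM at 12 h and 80.9, 93.7 and 48.6 CPM at 24 h. Its groups did not overlap with darkness either (log2 1.89 ± 0.30, adjusted p = 8e-05). The remaining 10 rose by between 2.28 (PSAO) and 2.80 (PSAN, a lumenal subunit) in WT, among them the antenna-binding PSAK at 2.73 ± 0.33 and PSAL, which forms the trimer contact in cyanobacteria, at 2.59 ± 0.27. In hy1 the 12 genes rose by 2.5 (PSAD2) to 4.11 (PSAK) at 24 h, and PSAE1 and PSAG, with PSAK, exceeded 4. PSAO (AT1G08380), a subunit needed in state transitions, was the photosystem I gene whose change did not pass at 12 h in WT. Its libraries read 112, 42.3 and 35.7 CPM against 42.1, 24.8 and 33 CPM in darkness (log2 0.93, adjusted p = 0.067). The high library was the one that did not stand apart. Without the 3 libraries that stood apart, which leaves it as the only WT 12 h library, the change was 1.76.

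All 12 photosystem II genes rose in WT by 24 h, and they spanned the widest range. PSBS (AT1G44575), the sensor of lumen acidity that triggers thermal dissipation of excess light, had the largest change among the 35 genes. It read 16.7, 6.29 and 16.2 CPM in WT darkness, 385, 191 and 188 CPM at 12 h and 327, 371 and 157 CPM at 24 h. In hy1 it read 6.15, 4.93 and 2.39 CPM, then 203, 199 and 210.4 CPM, then 96.7, 166 and 138 CPM. Its log2 change was 4.29 ± 0.46 at 12 h and 4.45 ± 0.47 at 24 h in WT, and 5.51 ± 0.50 and 4.90 ± 0.48 in hy1. PSBO2 (AT3G50820), the minor copy of the manganese-stabilising protein of the water-splitting complex, came next in WT at 24 h with 4.30 ± 0.33. The extrinsic proteins of that complex rose by 3.02 ± 0.33 (PSBP1), 2.63 ± 0.36 (PSBQ1) and 2.25 ± 0.31 (PSBQ2). Small subunits of photosystem II rose by 2.68 ± 0.41 (PSBW), 2.76 ± 0.39 (PSBX), 3.04 ± 0.28 (PSBY) and 2.93 ± 0.24 (PSBTN). The smallest WT change at 24 h was that of PSB27 (AT1G03600), a lumenal protein of photosystem II assembly and repair. It read 16, 11 and 11.9 CPM in darkness, 36.8, 14.1 and 11.2 CPM at 12 h and 57, 72.1 and 20.2 CPM at 24 h. The 12 h libraries overlapped darkness (log2 0.67, adjusted p = 0.18), while those at 24 h lay above it (1.94 ± 0.43, adjusted p = 0.0014). Without the 3 libraries, which leaves 1 WT 12 h library, the change at 12 h was 1.51.

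Among the carriers, the plastocyanin genes parted most. PETE2 (AT1G20340), the main plastocyanin gene here, read 38.5, 25.7 and 26.1 CPM in WT darkness, 162, 136 and 105 CPM at 12 h and 264, 345 and 181 CPM at 24 h, a log2 change of 3.13 ± 0.24 at 24 h (adjusted p = 3.7e-08). PETE1 (AT1G76100) read 7.16, 4.42 and 6.65 CPM, then 5.85, 8.87 and 2.84 CPM, then 10.6, 13.7 and 7.24 CPM. Its 24 h libraries lay narrowly above the dark ones and the change of 0.79 ± 0.34 did not pass (adjusted p = 0.069), which makes it the 1 member not called in WT at 24 h. In hy1 PETE1 rose, from 2.18, 1.7 and 1.99 CPM to 7.86, 8.49 and 11.3 CPM at 12 h (log2 2.23 ± 0.37, adjusted p = 0.00013). PETC (AT4G03280), the Rieske iron-sulphur protein of cytochrome b6f, rose by 2.83 ± 0.27 at 24 h in WT, and the leaf ferredoxins FD1 and FD2 rose by 3.10 ± 0.26 and 2.46 ± 0.22.

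Of the cyclic flow genes, PGR5 (AT2G05620) read 8.25, 6.65 and 8.19 CPM in WT darkness, 45.4, 16.5 and 22.5 CPM at 12 h and 49.4, 53.7 and 30.8 CPM at 24 h (log2 2.54 ± 0.30, adjusted p = 4.3e-06). PGRL1A (AT4G22890), its membrane partner, read 12.6, 11.3 and 12.2 CPM, then 32.9, 30 and 19.9 CPM, then 50.5, 56.4 and 34.8 CPM (1.97 ± 0.18, adjusted p = 2.4e-07). Neither gene overlapped between darkness and light. Of the ATP synthase genes, ATPD (AT4G09650), the delta subunit that joins the head to the stalk, read 19.6, 13.4 and 15.7 CPM in WT darkness, 79.6, 126 and 84 CPM at 12 h and 119, 151 and 127 CPM at 24 h (3.03 ± 0.18, adjusted p = 2.8e-09). ATPC1 (AT4G04640), the gamma subunit that turns inside the head, read 33, 28.8 and 34.9 CPM, then 117, 188 and 132 CPM, then 173, 208 and 186 CPM (2.55 ± 0.16, adjusted p = 3e-09). In both, all light libraries lay above all dark ones.

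**Figure D2:**
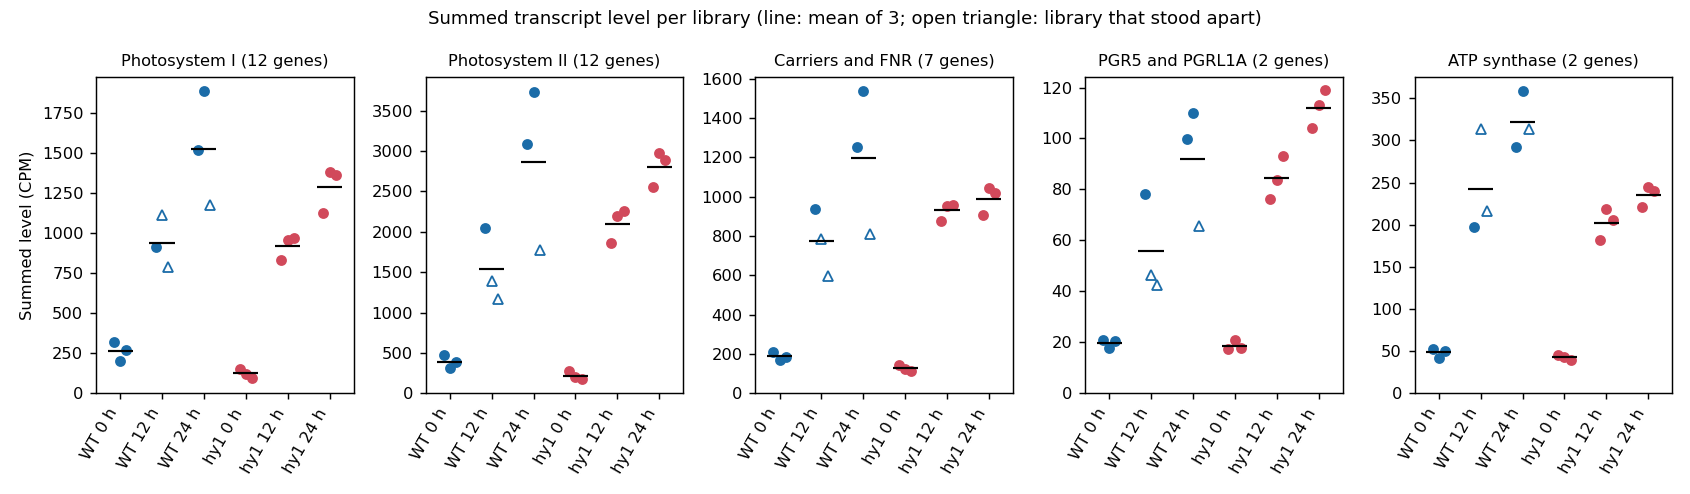
Summed level in CPM (vertical axis, linear from 0) of the genes of each role in each library (horizontal axis, the 6 groups), with lines at group means and open triangles for the 3 libraries that stood apart. The photosystem II sum was 315 to 471 CPM in WT darkness and 173 to 273 CPM in hy1 darkness, and stood at 1779.5 to 3736 and 2555 to 2972 CPM at 24 h.

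Per length, the most abundant transcripts in WT darkness were PSBO1 (78.6 CPM per kilobase of exon), FD2 (76.2) and PSBR (60.6), and at 24 h PSBR (509), PSBO1 (419.7) and FD2 (419.6). The lowest at 24 h were PETE1 (10), PSAG (15.2) and PSAE1 (18.2).

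From 12 h to 24 h in WT 13 members rose and none fell, with a median of 0.91, while 3.67% of all genes rose and 5.41% fell. None of the 13 calls held under every alternative run. The rises included PSBO1 (1.31 ± 0.24, adjusted p = 0.0033) and LFNR1 (0.65 ± 0.12, adjusted p = 0.0033), with adjusted p = 0.19 and 0.2 when only the groups compared were fitted. This count rests on single libraries. Leaving out replicate 1, 2 or 3 of WT 12 h in turn gave 24, 13 or 3. Doing so at WT 24 h gave 4, 2 or 25. Over all genes the count of rises ran from 350 to 4270 in these fits, beside 769 in the main fit. Without the 3 libraries together 13 members were called, beside 1.58% of all genes, and 7 of them were among the 13 above. In hy1 1 member, LFNR1, rose from 12 h to 24 h (0.44 ± 0.12, adjusted p = 0.048; 2.35% of all genes rose and 2.54% fell), with a median of 0.32. That call was lost when any 1 hy1 library at 12 h or 24 h was left out. Without the 3 WT libraries 13 members rose in hy1 over that step and FD1 fell, beside 7.62% and 8.62% of all genes. The main count in hy1 is near its background. At an unadjusted p under 0.05, 9 members rose in hy1 and 0 fell, beside 7.76% and 9.27% of all genes. More members were called when only the hy1 groups compared were fitted, with the counts given at the end.

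In darkness, transcripts of the group were lower in hy1 than in WT. Of the 35 genes 21 were lower and none higher (median log2 -1.09), against 12.4% and 12.2% of all genes and an overall median of -0.01. At an unadjusted p under 0.05, 26 were lower and none higher, beside 18.4% and 17.7% of all genes. The 21 held 9 of 12 photosystem I genes, 8 of 12 photosystem II genes, 3 of 7 carrier genes and ATPD. Neither PGR5 nor PGRL1A passed (log2 -0.41 and 0.11). The count was 28 without the 3 libraries, in a fit where 23.3% of all genes were lower against the 12.4% above, 13 without WT 0 h replicate 1 and at most 20 without any other dark library.

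LFNR2 (AT1G20020), a leaf ferredoxin-NADP reductase, had the largest of these differences. It read 15.2, 12.8 and 15.7 CPM in WT and 3.98, 2.25 and 4.4 CPM in hy1, groups that lay far apart (log2 -2.04 ± 0.25, adjusted p = 4.7e-05). PSAH2 (AT1G52230), a photosystem I subunit that binds the mobile antenna in state transitions, read 11.7, 6.81 and 7.76 CPM against 3.62, 3.23 and 2.51 CPM (-1.49 ± 0.24, adjusted p = 0.00039). PSAF (AT1G31330), on the plastocyanin side of photosystem I, read 76, 52.2 and 65.6 CPM against 34.2, 31.5 and 25 CPM (-1.09 ± 0.19, adjusted p = 0.00066). PSBTN (AT3G21055), a small photosystem II subunit, read 22.5, 16.9 and 14.4 CPM against 9.73, 6.07 and 5.6 CPM (-1.33 ± 0.23, adjusted p = 0.00071). PSAH1 (AT3G16140), the paralog of PSAH2, read 13.3, 8.64 and 10.7 CPM against 6.18, 3.76 and 2.3 CPM (-1.42, adjusted p = 0.0015). PSAD1, with the dark values given above, differed by -1.39 ± 0.27 (adjusted p = 0.0018). In each of these genes all hy1 libraries lay below all WT libraries. At the other end stood PSBO2, at 6.78, 5.08 and 7.14 CPM in WT and 10.1, 4.35 and 6.96 CPM in hy1, where the groups overlapped (log2 0.17, adjusted p = 0.73).

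Of the markers of other cells, 3 of 3 root meristem genes were called higher in hy1 darkness and 1 of 3 tested guard-cell genes, FAMA, lower. The epidermal, vascular and endodermal genes and STM did not pass. The 4 guard-cell genes (FAMA, MYB60, SPCH and MUTE) summed to 3.78 to 5 CPM in WT and 0.89 to 1.89 CPM in hy1, and MUTE was near 0 throughout. The 2 epidermal genes ATML1 and PDF1 summed to 262 to 389 CPM and 133 to 180 CPM. The 3 vascular genes summed to 175 to 197 CPM and 213 to 251 CPM, and the 3 endodermal genes to 283 to 314 CPM and 227 to 273 CPM. The shoot meristem genes, mainly STM, summed to 18.5 to 27.5 CPM and 14 to 15.9 CPM, and the root meristem genes to 0.761 to 1.13 CPM and 3.64 to 4.73 CPM. Root hair and seed markers stayed under 1 CPM in sum in every library. The part of these markers in the results was not tested.

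After 12 h of light few members differed between the genotypes. Of the 35 genes 5 were higher in hy1 and 2 lower (median log2 0.42), beside 14.9% and 17.8% of all genes, so the count of higher members was near the background and that of lower ones under it. Among the markers of other cells at 12 h, STM (log2 1.58), ATML1, WOX5 and 1 of 3 vascular genes were called higher in hy1, and the guard-cell genes FAMA and MYB60 and the endodermal genes CASP1 and SCR lower. The shoot meristem sum was 4.87 to 10.3 CPM in WT and 16.9 to 24.1 CPM in hy1, the endodermal sum 375 to 669 CPM and 288 to 324 CPM, and neither overlapped. The guard-cell sum, at 7.79 to 26.8 CPM and 8.67 to 11.3 CPM, did. Their part in the comparison was not tested. PSBO1 (AT5G66570), the main manganese-stabilising protein, read 348, 218 and 198 CPM in WT and 398, 482 and 484 CPM in hy1 (0.84 ± 0.24, adjusted p = 0.017). PGRL1A read 38.3, 41.6 and 43.1 CPM in hy1, above its WT values (0.57 ± 0.17, adjusted p = 0.021). PSBR (AT1G79040), a small subunit that helps hold the water-splitting proteins, read 285, 118 and 136 CPM against 296, 346 and 416 CPM (0.98 ± 0.31, adjusted p = 0.025). PSB27 read 45.5, 55.6 and 51.7 CPM in hy1 (1.30 ± 0.42, adjusted p = 0.027), and PETE2 179, 201 and 231 CPM (0.60 ± 0.22, adjusted p = 0.049). In these 5 genes the hy1 libraries lay above all WT ones, and the nearest WT library was in each case replicate 1, the one that did not stand apart. PSAD1 (-0.74 ± 0.27) and PSBY (AT1G67740), a small photosystem II subunit (-0.72 ± 0.26), were lower in hy1, both at adjusted p = 0.045, and both overlapped between genotypes. PSBY read 91.4, 229 and 161 CPM in WT and 77.9, 115 and 99.1 CPM in hy1. None of the 7 calls held without the 3 libraries, which leaves 1 WT 12 h library. The log2 difference of FD1, hy1 against WT, was then -0.48. The count of higher members ran from 0 without WT 12 h replicate 3 to 15 without WT 12 h replicate 1. Over all genes the count of higher genes ran from 1900 to 5651 when 1 library was left out, beside 3129 in the main fit.

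After 24 h 2 members were lower in hy1 and none higher (median -0.18), beside 10.2% and 10.5% of all genes. At an unadjusted p under 0.05, 6 were lower and none higher, beside 17.7% and 16% of all genes. DESeq2 called 6 lower and none higher, beside 12.2% and 13%. The edgeR counts of lower members are near or under their background, and the DESeq2 count is somewhat above its own. Of the markers, STM, ATML1, 1 of 3 vascular, 2 of 3 endodermal and 1 of 3 root meristem genes were called higher in hy1 then and 2 of 3 guard-cell genes lower, and their part was not tested. ATPD read 119, 151 and 127 CPM in WT and 71.9, 85.3 and 81.3 CPM in hy1 (-0.74 ± 0.17, adjusted p = 0.0068). PSAH2 read 44.4, 54.1 and 41.3 CPM against 20.6, 33 and 33.2 CPM (-0.69 ± 0.22, adjusted p = 0.039). Neither gene overlapped between the genotypes. Without the 3 libraries 12 members were lower, FD1 (-0.90 ± 0.11) and PSBS (-1.38 ± 0.31) among them, beside 17.9% of all genes. Leaving out 1 library at 24 h gave 1 to 5 lower members, the 5 without WT 24 h replicate 3. Over all genes 1083 to 1830 were lower in these fits, beside 2128 in the main fit.

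**Figure D3:**
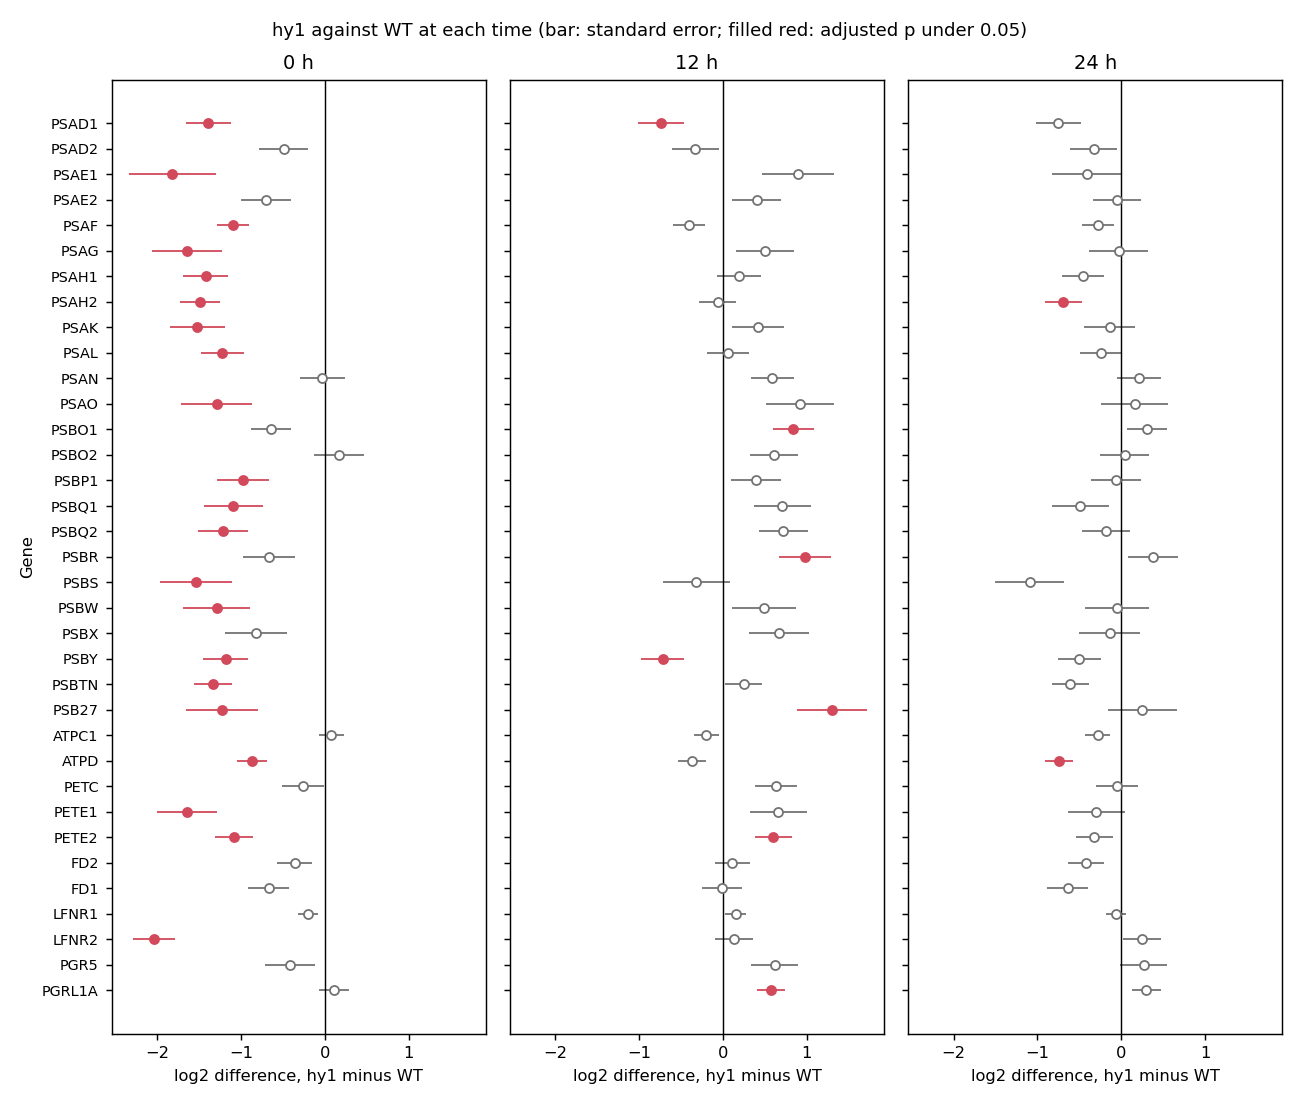
Log2 difference of hy1 from WT for each gene with its standard error, at 0 h, 12 h and 24 h. In darkness 32 of 35 genes lie below 0, at 12 h 26 lie above it and at 24 h 26 lie below it, with LFNR2 at -2.04, 0.13 and 0.25.

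The light response at 12 h differed between genotypes for 18 members, all with a larger log2 change in hy1 (median over the 35 genes 1.37). Of all genes 6.73% differed in that direction and 6.8% in the other. The interaction shares the dark libraries with the genotype comparison above, and a gene that starts lower in hy1 and ends level gives it. LFNR2 had the smallest adjusted p, while PSAE1, PSB27, PETE1 and PSAO had larger differences (2.72, 2.53, 2.29 and 2.22). That of PSAE1 rests on low levels in hy1 darkness, at 0.947, 0.733 and 0.234 CPM. For PSAO and PSB27 the WT 12 h libraries that stood apart differed from replicate 1 by -1.51 and -1.48 on the log2 scale. LFNR2 read 42.6, 58.1 and 30.5 CPM in WT and 40.5, 48.7 and 54 CPM in hy1 at 12 h, so that the genotypes overlapped in light after standing apart in darkness. Its log2 change was 1.58 ± 0.24 in WT and 3.75 ± 0.26 in hy1, a difference of 2.17 ± 0.34 (adjusted p = 0.00094). PETE2 (1.68 ± 0.32, adjusted p = 0.0036), PSBTN (1.58 ± 0.32, adjusted p = 0.0054), PETE1 (2.29 ± 0.50, adjusted p = 0.0082), PSBQ2 (1.93 ± 0.42, adjusted p = 0.0083) and PSAH2 (1.43 ± 0.33, adjusted p = 0.011) followed. PSBTN read 92.1, 95.7 and 94.8 CPM in WT and 85.3, 118 and 132 CPM in hy1 at 12 h. PSBQ2 (AT4G05180), an extrinsic protein of the water-splitting complex, read 21.6, 11.1 and 14.7 CPM in WT darkness and 36.9, 37.9 and 21.7 CPM at 12 h, against 9.68, 6.23 and 4.64 CPM and then 50.4, 55.5 and 53.5 CPM in hy1. Without the 3 libraries, which leaves 1 library at WT 12 h, the median over the 35 genes was 1.06. The count was 12 to 25 when 1 library was left out. Over all genes the count in that direction ran from 935 to 4626 in these fits, beside 1411 in the main fit. Of the 18 calls 12 held under every alternative run.

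At 24 h LFNR2 was the 1 member whose response differed (2.29 ± 0.34, adjusted p = 0.00052), beside 5.18% and 3.49% of all genes. It then read 58.9, 72.9 and 50.2 CPM in WT and 64.4, 73.9 and 78.3 CPM in hy1. At an unadjusted p under 0.05 the count was 18, all larger in hy1, beside 10.8% of all genes. Without the 3 libraries 10 members passed, PSAF, PSAO and PSB27 among them, beside 9.18% of all genes. Leaving out replicate 2 of WT at either 0 h or 24 h raised the count to 3, and leaving out the first hy1 dark library raised it to 4. Over all genes the count in that direction ran from 806 to 1032 when 1 library was left out, beside 1085 in the main fit. The step from 12 h to 24 h differed between genotypes for none of the 35 genes by edgeR (0.425% and 0.115% of all genes). At an unadjusted p under 0.05 there were 5, all smaller in hy1, beside 4.73% of all genes, and DESeq2 called none. Leaving out WT 12 h replicate 1 gave 3, all smaller in hy1. Over all genes the count in that direction ran from 11 to 1055 when 1 library was left out, beside 24 in the main fit.

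The list holds 8 pairs of paralogs, and the share of the second gene in the length-scaled level of its pair describes how the pair is divided. No 50-base stretch of exon was identical within a pair. LFNR2 gave 34, 33.5 and 35.5% of the LFNR pair in WT darkness and 13.1, 9.3 and 15.4% in hy1 darkness, groups that did not overlap. In light it gave 24.4 to 25.1% in WT and 28 to 30.3% in hy1 at 24 h. LFNR1 (AT5G66190) itself read 24.3, 20.9 and 23.4 CPM in WT darkness and 21.6, 18 and 20 CPM in hy1, which overlapped (log2 -0.20, adjusted p = 0.25). The 250 bases upstream of the annotated start of the pair are shown because LFNR2 was called lower in hy1 darkness and LFNR1 was not, while both rose in light, with the I-box core in capitals.
LFNR1, chr5:26453200-26453449, minus strand: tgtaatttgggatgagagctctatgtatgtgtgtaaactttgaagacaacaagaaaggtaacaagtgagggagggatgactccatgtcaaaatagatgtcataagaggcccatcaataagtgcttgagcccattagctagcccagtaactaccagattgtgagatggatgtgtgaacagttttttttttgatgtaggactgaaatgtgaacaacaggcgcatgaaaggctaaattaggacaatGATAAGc
LFNR2, chr1:6942375-6942624, plus strand: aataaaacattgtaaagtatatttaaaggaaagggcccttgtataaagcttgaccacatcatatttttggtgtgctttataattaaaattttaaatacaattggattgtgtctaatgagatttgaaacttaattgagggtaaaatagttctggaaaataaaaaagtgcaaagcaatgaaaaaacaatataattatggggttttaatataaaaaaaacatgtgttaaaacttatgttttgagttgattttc
No CACGTG or ACGTGG was found in either window, and the I-box core was found in that of LFNR1.

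The plastocyanin pair shifted toward PETE2 in light, from 80.7, 81.9 and 75.3% in WT darkness to 95.1, 95.1 and 95.1% at 24 h, and from 84.7, 87.4 and 82.7% to 95.6, 93.7 and 96% in hy1. PSBO2 went from 5.46, 5.66 and 6.06% of the PSBO pair in WT darkness to 17.8, 19 and 17.8% at 24 h, and in hy1 from 11, 6.58 and 10.8% to 15.2, 16.5 and 15.3%. The dark and light libraries of both pairs did not overlap in either genotype. PSAD2 took 26.1, 23.4 and 24% of the PSAD pair in WT darkness and 36.3, 39.9 and 37.9% in hy1 darkness, again without overlap. The dark difference of hy1 from WT was -1.39 for PSAD1 and -0.49 (adjusted p = 0.24) for PSAD2. PSAE2 supplied 92.4% of its pair in WT darkness and 87.8% at 24 h on average, and 96.4% and 89.7% in hy1. Its WT libraries overlapped, at 90.5% to 94.5% in darkness and 84.4% to 90.6% at 24 h, and those of hy1 did not. FD2 supplied 80.2% and 72.4% of the ferredoxin pair in WT, and 83.5% and 75.2% in hy1. For the PSAH and PSBQ pairs the 6 group means ran from 52.1% to 60.1% for PSAH2 and from 23.5% to 29.4% for PSBQ2. Single libraries ran wider, from 47.8% to 66.9% for PSAH2 and from 17.5% to 33.5% for PSBQ2.

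**Figure D4:**
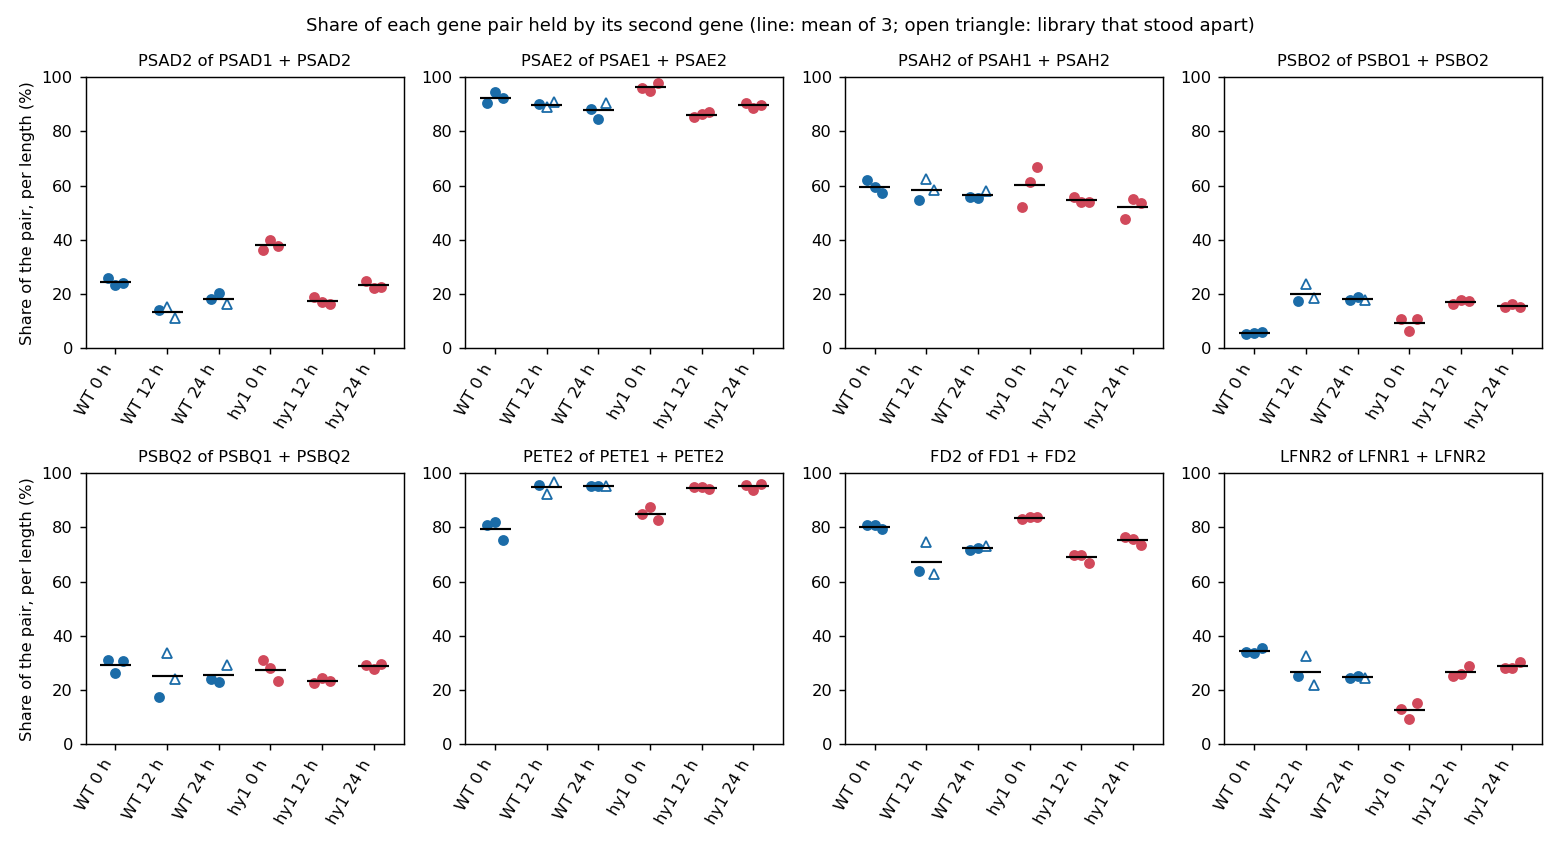
Share in percent (vertical axis) of the second gene of each of 8 paralog pairs, from levels per kilobase, in each library of the 6 groups (horizontal axis). The LFNR2 points of hy1 darkness, 9.3% to 15.4%, lie below all others of that pair, and PETE2 lies at 75.3% to 87.4% in darkness and at 92.3% to 96.6% in light.

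The members with and without a G-box were also set side by side. The median log2 change at 24 h was 2.65 for the 12 genes with it and 2.59 for the 23 without it in WT, and 3.47 and 3.42 in hy1. At 12 h it was 1.55 and 1.87 in WT and 3.27 and 3.15 in hy1, and for the WT step from 12 h to 24 h 1.14 and 0.78. In the interaction at 12 h the medians were 1.59 and 1.04, with 9 of 12 and 9 of 23 genes called. In darkness hy1 differed from WT by -1.15 and -1.08, with 8 of 12 and 13 of 23 called lower. These are descriptions with no test.

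Other genes of the light reactions rose with the members. Of 12 assembly factors 10 rose in WT at 24 h and none fell (median 1.68), with HCF136, needed for photosystem II assembly, at 2.90 ± 0.14. PSB28 and PPL1, a relative of PSBP, rose by 4.42 ± 0.35 and 3.43 ± 0.34. ALB3 and LPA1 did not pass (0.24 and 0.40). Of 12 genes of thylakoid regulation and structure 10 rose (median 1.85): the calcium sensor CAS by 3.59 ± 0.15, the state-transition kinase STN7 by 2.04 ± 0.14 and the membrane-bending CURT1B by 2.24 ± 0.16. Of 15 nuclear genes of the chloroplast NDH complex 14 were tested and all 14 rose (median 3.05), PNSB1 by 3.98 ± 0.33, PNSL2 by 4.82 ± 0.47 and NDHN by 3.92 ± 0.42. Of 9 further genes, mostly isoforms, 6 were tested and 5 rose (median 1.15). Among them were PDE334, a further ATP synthase subunit and not an isoform of a member, by 2.53 ± 0.33, and the root reductase RFNR1 by 0.99 ± 0.14. The ferredoxin FD3 did not pass (0.26), and NDHL, FDC1 and ATPC2 were listed at 0 in all 18 libraries. In the dark comparison of hy1 with WT 1 assembly gene was higher in hy1 and 2 were lower out of 12 tested. The counts were 2 and 2 of 12 in the regulation list, 1 and 1 of 14 in the NDH list and none of 6 among the further genes. Over all genes 12.2% were higher and 12.4% lower in that comparison. The difference of these lists from the members was not tested.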

How the data were processed

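Poly-A RNA of 18 hypocotyl libraries in 6 groups was analysed from the deposited counts. Per the file headers the authors made these whole-number read counts per gene with featureCounts 2.0.3 on a TAIR10 annotation, and the options in the header count each mate of a pair, ignore strand and leave out reads that map to several places. The submitters' processing notes also name STAR 2.7.8a, StringTie 2.1.3 and HTSeq, with no role. The deposited per-length table was not used.

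In R 4.3.3, 1 edgeR 4.0.16 quasi-likelihood model with TMM scaling and 6 group means was fitted to the 20955 genes that passed filterByExpr, with two-sided tests and Benjamini-Hochberg adjustment over these genes in each of 12 comparisons. Calls needed an adjusted p under 0.05. Errors are standard errors of log2 changes. Levels are TMM-scaled CPM, divided by exon length where genes were compared. DESeq2 1.42.0 was an alternative. The fit was also run on simulated counts for 1 of the 12 comparisons, WT 24 h against 0 h, with the same spread for all genes. That run cannot show how the fit behaves for interactions or with libraries that differ within a group. Reads without strand cannot be told apart between overlapping genes.

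The members and lists were chosen with earlier results of these data known. Values by library are given for the members of each role with the largest and the smallest change in WT at 24 h, for up to 6 members with the smallest adjusted p per genotype comparison or interaction, and for unequal pairs. Further members were chosen after their values were seen. Of 78 list entries 72 were used, since the annotation did not carry 6 symbols (PSB32, PYG7, PSA3, CPSAR1, NDHT and PETM) at the locus. Coordinates and symbols of 35 of 35 members matched TAIR10.1, as did the start and end of 99.95% of 32548 matched genes.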

Additional observations from a re-analysis of the deposited data

Results flagged for a closer look

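The light response at 12 h differed between WT and hy1 by a test of the difference itself for 18 members, and each difference is given as the log2 change in hy1 minus that in WT. Among photosystem I genes it was 2.72 for PSAE1, 2.22 for PSAO, 2.13 for PSAG, 1.94 for PSAK, 1.60 for PSAH1, 1.43 for PSAH2 and 1.28 for PSAL. Among photosystem II genes it was 2.53 for PSB27, 1.93 for PSBQ2, 1.8 for PSBQ1, 1.78 for PSBW, 1.65 for PSBR, 1.58 for PSBTN, 1.47 for PSBO1 and 1.37 for PSBP1. Among the carriers it was 2.29 for PETE1, 2.17 for LFNR2 and 1.68 for PETE2. At 24 h it was 2.29 for LFNR2, the 1 member past the threshold then. The calls of PSAL, PSAO, PSBP1, PSBQ1, PSBR and PSBW were lost under at least 1 alternative.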

How the results depend on the processing

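Of 199 calls of members 162 held under every alternative and 37 were lost under at least 1, and the 35 rises of hy1 at 12 h and at 24 h held in all. With DESeq2, 21 members rose in WT and 3 in hy1 from 12 h to 24 h, beside 6.02% and 4.33% of all genes. At 24 h 6 were lower in hy1 (12.2% of all genes) and 4 had a larger response in hy1 (6.84%). With only the groups compared in the fit, these counts were 0 and 17 (2 fell) for the step, and 2 for the response at 24 h, while 0 were higher and 0 lower in hy1 at 12 h. With upper-quartile factors 0 members were lower in hy1 at 12 h, 1 at 24 h, and 2 differed in response at 24 h. Without the filter, the rise of LFNR1 in hy1 was lost (0 called). Apart from those of DESeq2, these counts are given without the share over all genes. They show only how the calls depend on the setting.

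Without the 3 libraries that stood apart, 13 members rose and 1 fell in hy1 from 12 h to 24 h, 0 were higher and 1 lower in hy1 at 12 h, 12 were lower at 24 h, 10 differed in response at 24 h, and PSBY at 12 h changed sign to 0.09. The cause was not tested.

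Leaving out 1 library each gave a range of counts, here with the range over all genes in brackets. Rises from 12 h to 24 h numbered 2 to 25 in WT (350 to 4270) and 0 to 0 in hy1 (271 to 354). In hy1 against WT, 13 to 20 members were lower in darkness (1754 to 2240). At 12 h 0 to 15 were higher (1900 to 5651) and 0 to 5 lower (2157 to 5439). At 24 h 1 to 5 were lower (1083 to 1830). A larger response in hy1 at 24 h was called for 1 to 4 (806 to 1032). A smaller step in hy1 was called for 0 to 3 (11 to 1055), the 3 without WT 12 h replicate 1. A group left with 1 or 2 libraries is assumed to vary like the others.

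Replicate numbers gave no clear pairing of the libraries. Same-numbered ones correlated at -0.54 to 0.80, median 0.02, and other-numbered ones at -0.89 to 0.75, median -0.01. Of 18 libraries 9 correlated best with their own number, and correlations that overlap this far cannot exclude a pairing. With the replicate block 0 members rose in hy1 from 12 h to 24 h and 0 were lower in hy1 at 12 h.

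With 3 libraries a group, differences at 12 h and 24 h rest on few values. Intervals cover the spread of these libraries only.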
